A study of Mus musculus with 18 samples.

Results

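The genes described here encode proteins of fatty acid uptake and the enzymes that couple fatty acids to coenzyme A. They were the 10 rows of a gene count table whose symbol was Lpl, Gpihbp1, Cd36, Slc27a1, Slc27a4, Fabp4, Acsl1, Acsl3, Acsl4 or Acsl5, out of 17672 genes. RNA was sequenced from an immortalised mouse brown adipocyte line with a stable lentiviral shRNA that lowers Abhd5, the gene of a protein that activates adipose triglyceride lipase (ATGL). All groups carried this knockdown and, in addition, an shRNA-resistant, mCherry-tagged ABHD5 construct in the vector pINDUCER20 that doxycycline (Dox) switches on. The comparisons address which responses depend on Dox, given to restore ABHD5. Lipolysis itself was not measured in these libraries.

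Differentiated cells were left without Dox (genotype label ABHD5 KD) or received Dox at 1 µg/ml (genotype label WT, here the rescued state). The methods give 24 to 48 h of Dox, and the legend of the supplementary figure on this experiment gives 24 h. In each state cells then received, over 3 h, either DMSO as vehicle, or isoproterenol (ISO) at 10 nM to stimulate β-adrenergic receptors, or SR-3420 at 20 µM, a ligand of ABHD5 that activates lipolysis without the receptor. This gave 6 groups of 3 libraries. The methods call the experiments independent. All libraries came from 1 transduced line, no group had Dox without the construct, and the design does not tell an effect of Dox itself from that of ABHD5.

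Circulating triacylglycerol is cleaved at the vessel wall by lipoprotein lipase (LPL), which endothelial GPIHBP1 anchors there. The fatty acids cross the adipocyte membrane with the help of CD36 and of fatty acid transport proteins of the SLC27 family, and fatty acid binding proteins such as FABP4 carry them in the cytosol. Long-chain acyl-CoA synthetases (ACSL) then attach coenzyme A, which commits a fatty acid to oxidation, re-esterification or other lipid synthesis, and brown adipocytes use the pathway to fuel heat production.

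Library totals ranged from 689910 to 1956565 counts. In 17 libraries the 10 most counted genes held 16.3% to 26.5% of counts, and in SR-3420 with Dox replicate 1 they held 35.6%, so the SR-3420 calls with Dox are also given without this library. The levels and marker sums include it. Abhd5 was at 47.2, 55.8 and 54.8 CPM (normalised read counts, relative to library totals scaled by TMM factors) in DMSO without Dox and at 583, 656 and 484 CPM with Dox, in the direction of the labels (log2 fold change 3.46, SE 0.17, edgeR quasi-likelihood adjusted p 2.44e-14). The table does not tell the construct's transcripts from those of the endogenous gene. Adipocyte markers were present in every library (Adipoq, Pparg, Plin1, Cidec and Pnpla2, summed 1903 to 4351 CPM). The 5 brown adipocyte markers summed to 84.3 to 1232 CPM. Of markers of other cells, the 5 preadipocyte markers summed to 103 to 173 CPM, the 6 endothelial markers to 6.80 to 25.8 CPM, and the 6 macrophage markers to 8.16 to 18.8 CPM.

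Of the 10 genes, 9 had enough counts to be tested among 10178 genes, and Gpihbp1 did not. With Dox alone, in DMSO, none of the 9 passed an adjusted p of 0.05 in either direction, where 1.09% of all tested genes were higher and 0.0884% lower. At an unadjusted p under 0.05, edgeR gave 3 higher and 1 lower, against 5.86% and 3.97% of all genes, and DESeq2 gave 0 calls. The replicate number was also fitted as a block, a pairing that the labels do not state. Of the 9, 2 were then higher (Slc27a1, Acsl5) and 1 lower (Acsl3), against 271 calls among all 10178 genes. ISO without Dox raised 4 genes (Lpl, Acsl1, Acsl4, Acsl5) and lowered 1 (Slc27a1), against 14.5% of all genes higher and 13.5% lower. ISO with Dox raised 5 (Lpl, Cd36, Fabp4, Acsl1, Acsl4) and lowered 2 (Slc27a1, Acsl5), against 16.4% and 16.1%. SR-3420 without Dox raised 3 (Slc27a1, Fabp4, Acsl1) and lowered 0, against 0.698% and 0.0688%. In that contrast 0 genes of the set were lower at an unadjusted p under 0.05 in edgeR, against 3.22% of all genes, and 0 were lower by DESeq2. SR-3420 with Dox raised 3 (Cd36, Fabp4, Acsl1) and lowered 1 (Acsl5), against 6.53% and 3.37%. Without replicate 1 of SR-3420 with Dox, Acsl5 did not pass (-0.52, edgeR adjusted p 0.0794), so that 3 genes were called higher and 0 lower. The 5 tested genes of the set not called with all libraries then ranged from -0.01 (Lpl) to 0.37 (Acsl4), with edgeR adjusted p of 0.485 to 0.992.

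Whether a response depended on Dox was tested as an interaction, the response with Dox minus that without. For ISO it was positive for 2 of the 9 genes (Acsl1, Fabp4) and negative for 1 (Acsl5), against 1.61% and 0.570% of all genes. For SR-3420 it passed for 0 of 9, against 0.540% and 0.216% of all genes, and DESeq2 gave 0 calls. At an unadjusted p under 0.05 in edgeR 2 genes were positive and 2 negative, against 6.62% and 5.43% of all genes. With the replicate block 2 passed as negative (Slc27a1, Acsl5), against 339 calls in either direction over all genes. The ISO and SR-3420 responses in a Dox state were measured against the same DMSO libraries, so they are given side by side and not as independent evidence. The median log2 fold changes of the 9 genes were 0.46 and 0.42 for ISO without and with Dox and 0.23 and 0.25 for SR-3420. Those of all tested genes lay between -0.02 and 0.00.

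**Figure D1:**
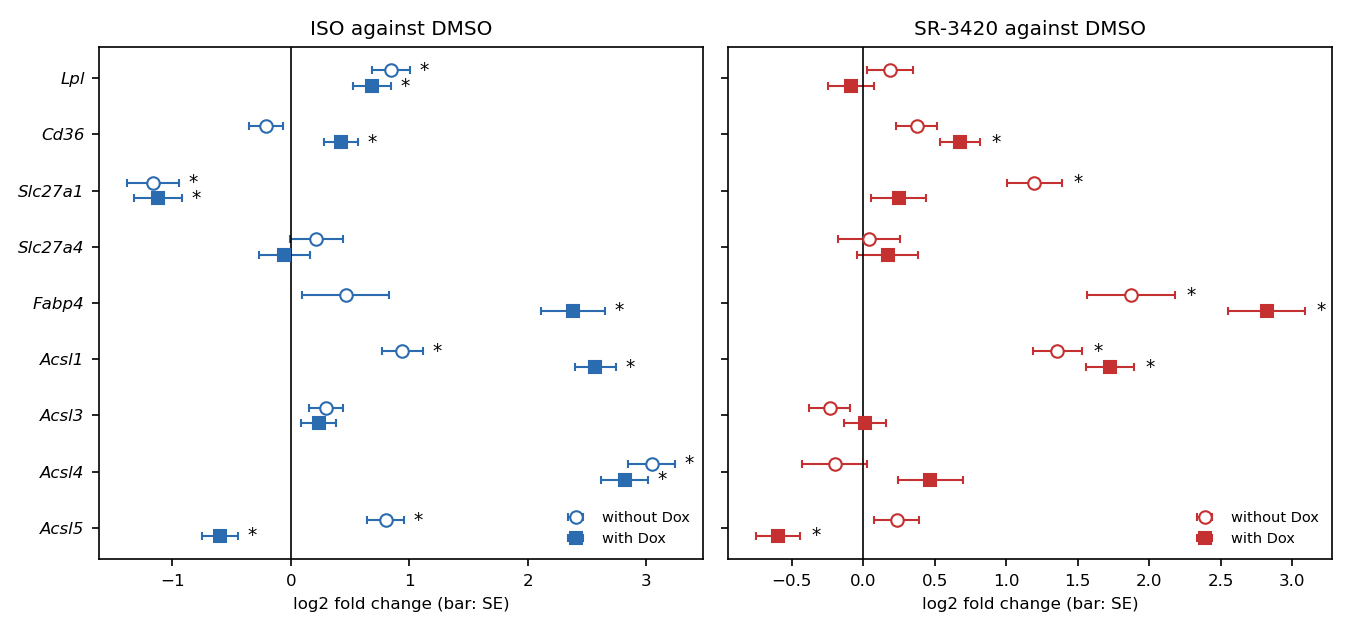
Log2 fold change (x axis; bars, SE) of the 9 tested genes for ISO (left) and SR-3420 (right) against DMSO, without Dox (open circles) and with Dox (filled squares), 3 libraries per group. Stars mark an edgeR adjusted p of 0.05 or less: Acsl5 rose with ISO without Dox (0.80) and fell with Dox (-0.60), whereas Acsl4 rose in both states (3.04 and 2.82).

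Which reads were counted is not settled by the sources used here. The counted length that the table gives for a gene covered less than the gene's non-exon bases for 9 of the 10 genes, such as 36722 bases for Acsl5, whose span has 39727 bases outside annotated exons, so the counts may be largely those of unspliced RNA. The counts of Abhd5 rose 11.0-fold with Dox in DMSO, and whether the construct holds intron sequence is not given in the sources used here. Levels of different genes are therefore compared only as CPM per kilobase counted. On that scale the median over the 18 libraries was 72.5 for Lpl, 15.8 for Slc27a1, 8.98 for Acsl3, 8.35 for Cd36, 7.56 for Acsl1, 2.89 for Slc27a4, 1.77 for Acsl5 and 0.870 for Acsl4. Lpl thus stood well above the rest, and Acsl5 and Acsl4 were the lowest of the synthetases. Fabp4 was counted over only 73 of its 4234 bases, so its level per kilobase cannot be set beside the others. In these bulk libraries, fewer cells transcribing a gene and less RNA of it per cell cannot be told apart.

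**Figure D2:**
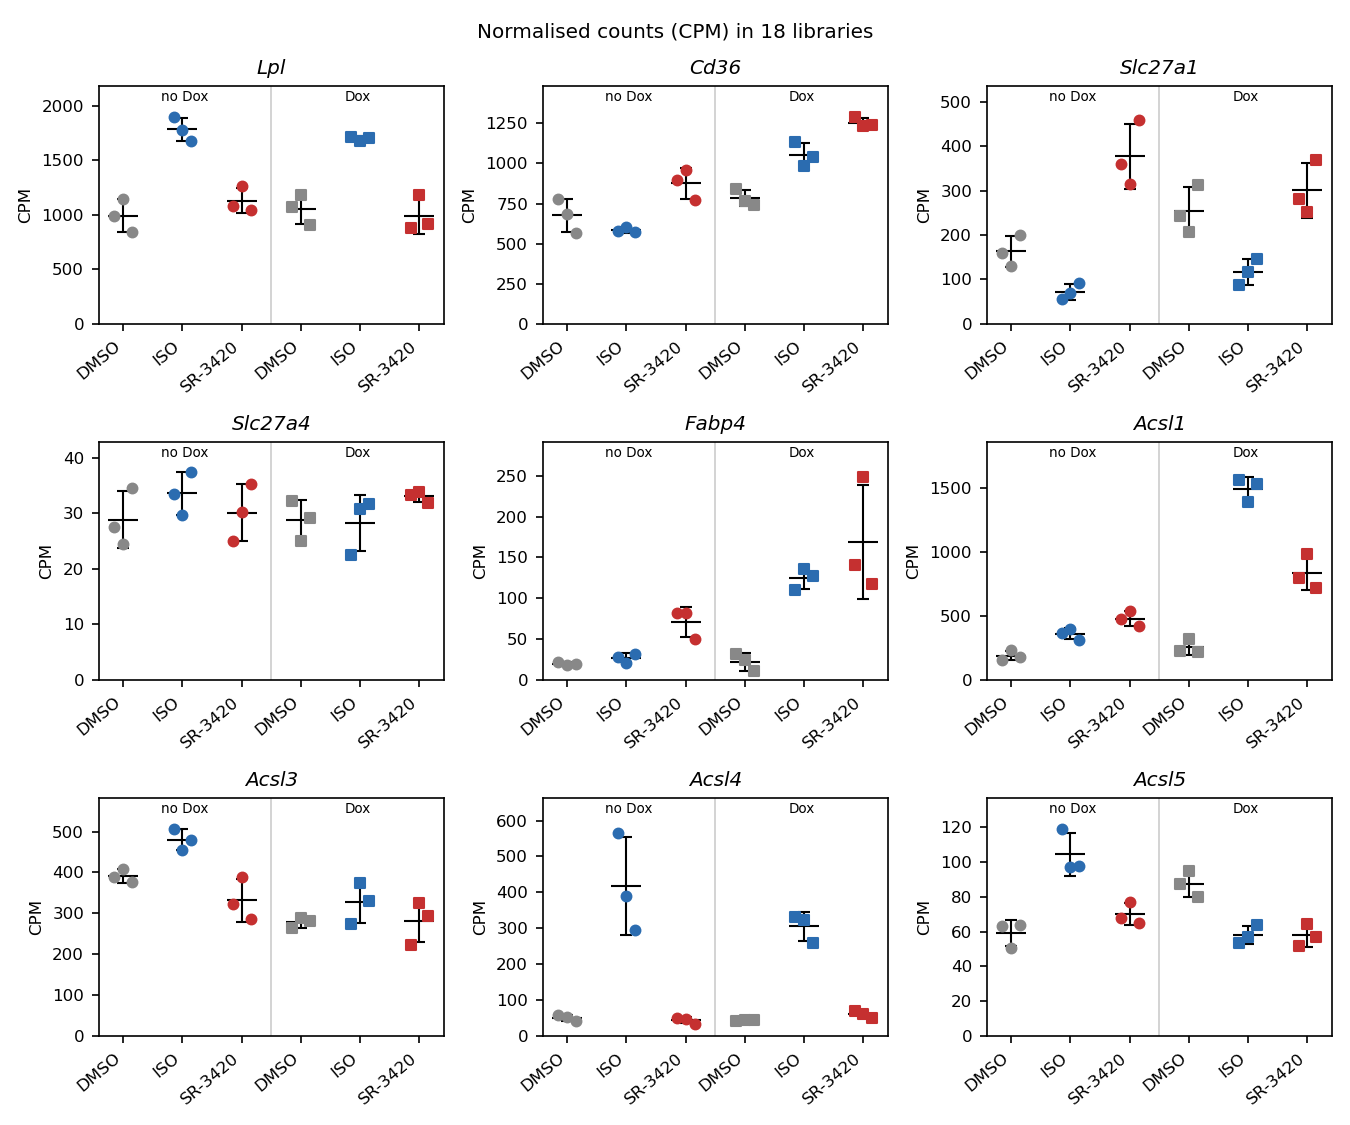
CPM (y axis, each panel from 0) of 9 genes in every library, in DMSO (grey), ISO (blue) and SR-3420 (red), without Dox (circles, left of the line) and with Dox (squares, right). Horizontal bars are means and whiskers SD of 3 libraries; Acsl1 in ISO with Dox lay between 1388 and 1562 CPM, above every other group.

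Lpl (NM_008509, chromosome 8, 71404454 to 71430831, plus strand of mm9), the lipase itself, rose with ISO in both Dox states. It read 989, 1143 and 843 CPM in DMSO without Dox and 1893, 1775 and 1676 CPM in ISO without Dox. With Dox it read 1069, 1185 and 904 CPM in DMSO and 1713, 1671 and 1702 CPM in ISO. Every ISO library lay above every DMSO library of its state. The log2 fold change was 0.85 without Dox (SE 0.16, edgeR adjusted p 0.000242) and 0.69 with Dox (SE 0.16, edgeR adjusted p 0.00153), with an interaction of -0.16 (SE 0.23, edgeR adjusted p 0.811). SR-3420 gave 1080, 1264 and 1045 CPM without Dox and 882, 1182 and 913 CPM with Dox, which overlapped DMSO (0.19 and -0.09, edgeR adjusted p 0.821 and 0.808).

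Gpihbp1 (NM_026730, chromosome 15, 75427088 to 75428643, plus strand), which anchors LPL on capillary endothelium, had 0 counts in all 18 libraries. It was counted over 759 bases, and a count of 0 allows up to 3 counts per library, for counting error only, so its transcription was not detectable at this depth. Of the endothelial markers, Tie1 had 0 counts, Kdr 1 and Cdh5 6 over all libraries. Tek, with 246 counts, was the only endothelial marker tested, and rose with ISO (1.25 without and 1.13 with Dox), so that the summed endothelial markers went from 6.80 to 17.2 CPM in DMSO without Dox to 21.6 to 25.8 CPM in ISO, and from 7.29 to 13.0 CPM to 17.3 to 22.8 CPM with Dox. In SR-3420 they read 9.29 to 12.6 CPM without and 7.99 to 14.1 CPM with Dox. Their part in the rise of Lpl was not tested.

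Cd36 (NM_001159558, chromosome 5, 17287508 to 17394777, minus strand), the scavenger receptor that takes up long-chain fatty acids, was raised by both stimuli in the rescued cells. With Dox it stood at 842, 766 and 743 CPM in DMSO, at 1135, 983 and 1039 CPM in ISO and at 1288, 1235 and 1238 CPM in SR-3420. The 3 groups did not overlap. The changes were 0.42 for ISO (SE 0.14, edgeR adjusted p 0.0218) and 0.68 for SR-3420 (SE 0.14, edgeR adjusted p 0.00168). The ISO call was lost without DMSO with Dox replicate 2 (0.41, edgeR adjusted p 0.0613) or 3 (0.40, 0.0668) or ISO with Dox replicate 1 (0.37, 0.0858). With library totals in place of TMM factors both calls were lost (0.29, edgeR adjusted p 0.205, and 0.50, 0.0579).

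Without Dox, Cd36 read 777, 683 and 568 CPM in DMSO, 581, 606 and 570 CPM in ISO and 895, 961 and 772 CPM in SR-3420. The ISO libraries lay within the DMSO range (-0.21, edgeR adjusted p 0.300), and SR-3420 overlapped it by 1 library (0.37, edgeR adjusted p 0.359). The ISO interaction was 0.63 (SE 0.20, edgeR adjusted p 0.0971) and did not pass. Macrophages also express Cd36, Lpl and Fabp4. The 6 macrophage markers had 248 counts for Cd68, 21 for Emr1, 16 for Csf1r, 14 for Cd14, 7 for Ptprc and 1 for Lyz2 over the 18 libraries. They summed to 13.5 to 18.8 CPM in DMSO with Dox, 11.6 to 15.8 CPM in ISO with Dox and 12.3 to 15.9 CPM in SR-3420 with Dox, and to 8.16 to 16.2, 8.26 to 18.8 and 13.4 to 17.4 CPM in the same order without Dox.

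Slc27a1 (NM_011977, chromosome 8, 74092826 to 74110607, plus strand), which encodes fatty acid transport protein FATP1, was the gene of the set that ISO lowered in both states. It fell from 158, 131 and 201 CPM to 55.1, 69.4 and 91.6 CPM without Dox and from 243, 207 and 312 CPM to 87.5, 117 and 145 CPM with Dox. No ISO library reached the DMSO range of its state. The log2 fold changes were -1.17 (SE 0.22, edgeR adjusted p 0.000190) and -1.12 (SE 0.20, edgeR adjusted p 7.64e-05), with an interaction of 0.04 (SE 0.29, edgeR adjusted p 0.968).

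SR-3420 took Slc27a1 the other way in the knockdown cells, to 359, 315 and 458 CPM, above every DMSO library (log2 fold change 1.20, SE 0.19, edgeR adjusted p 0.000706). In rescued cells SR-3420 gave 281, 252 and 370 CPM, which overlapped DMSO (0.25, edgeR adjusted p 0.485). The SR-3420 interaction was -0.95 (SE 0.27, edgeR adjusted p 0.0917) and the change with Dox in DMSO 0.62 (SE 0.20, edgeR adjusted p 0.166), so neither passed. Without a filter on low counts both passed (-0.99, edgeR adjusted p 0.00143, and 0.64, 0.00555).

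Slc27a4 (NM_011989, chromosome 2, 29658200 to 29673042, plus strand), the transport protein FATP4, ranged from 22.5 to 37.5 CPM over the 18 libraries and passed in no contrast. Its log2 fold changes in the 4 treatment contrasts were 0.22, -0.05, 0.04 and 0.17, with SE of 0.22, 0.22, 0.22 and 0.21, for ISO without and with Dox and SR-3420 without and with Dox. Its 18 to 67 counts per library were among the lowest of the set.

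Fabp4 (NM_024406, chromosome 3, 10204343 to 10208576, minus strand), the cytosolic binding protein of adipocytes, rose with SR-3420 in both states and with ISO in the rescued cells. Without Dox it read 21.4, 17.7 and 19.3 CPM in DMSO, 28.1, 20.8 and 31.5 CPM in ISO and 81.9, 81.9 and 50.2 CPM in SR-3420. ISO overlapped DMSO (0.46, SE 0.37, edgeR adjusted p 0.370), whereas every SR-3420 library lay above both (1.87 against DMSO, SE 0.31, edgeR adjusted p 0.000750). With Dox it read 31.3, 23.9 and 10.1 CPM in DMSO, 110, 136 and 127 CPM in ISO and 141, 249 and 118 CPM in SR-3420. Both stimuli stood clear of DMSO (ISO 2.38, SE 0.27, edgeR adjusted p 6.52e-08; SR-3420 2.82, SE 0.27, edgeR adjusted p 1.79e-08).

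The ISO response of Fabp4 was larger with Dox (interaction 1.92, SE 0.47, edgeR adjusted p 0.0251), and the SR-3420 interaction was 0.95 (SE 0.43, edgeR adjusted p 0.375). The ISO interaction was lost without DMSO without Dox replicate 1 (1.84, edgeR adjusted p 0.0974) or 3 (1.93, 0.0640) or ISO without Dox replicate 2 (1.79, 0.0504). It rests on 9 to 173 counts per library within 73 bases. Fewer than 100 bases were counted in 59 of the 17672 genes of the table.

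Among the synthetases, Acsl1 (NM_007981, chromosome 8, 47556396 to 47621404, plus strand), the main long-chain enzyme of adipocytes, rose in all 4 treatment contrasts. In DMSO without Dox it read 157, 229 and 176 CPM, in ISO 362, 400 and 314 CPM and in SR-3420 477, 537 and 417 CPM. In DMSO with Dox it read 223, 316 and 218 CPM, in ISO 1562, 1388 and 1530 CPM and in SR-3420 798, 979 and 718 CPM. No treated group overlapped its DMSO group. ISO gave 0.94 without Dox (SE 0.17, edgeR adjusted p 0.000148) and 2.57 with Dox (SE 0.17, edgeR adjusted p 1.83e-12), which is 1.92-fold and 5.94-fold. SR-3420 gave 1.36 (SE 0.17, edgeR adjusted p 2.06e-05) and 1.72 (SE 0.17, edgeR adjusted p 2.59e-08).

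The ISO interaction of Acsl1 was 1.63 (SE 0.24, edgeR adjusted p 0.000170) and that of SR-3420 0.37 (SE 0.24, edgeR adjusted p 0.567). Beside these rises, the 5 adipocyte markers of 5 in the table summed to 1903 to 2167 CPM in DMSO, 1969 to 2241 CPM in ISO and 2836 to 3040 CPM in SR-3420 without Dox. With Dox they summed to 2339 to 2524, 4011 to 4108 and 3440 to 4351 CPM in the same order. There 5 of 5 were higher with ISO (median log2 fold change 0.79), against 16.4% of all genes. With ISO without Dox 1 was higher (Pparg 0.55, edgeR adjusted p 0.00987) and 1 lower (Cidec -0.52, 0.0199), against 14.5% and 13.5%. Preadipocyte markers summed to 143 to 167, 103 to 109 and 136 to 146 CPM without Dox and to 153 to 173, 104 to 151 and 126 to 168 CPM with Dox. Their members differed in direction with ISO without Dox, where Pdgfrb fell (-1.20, edgeR adjusted p 1.59e-06) and Ly6a rose (3.29, edgeR adjusted p 3.53e-05). The part of cell state in the Acsl1 and Fabp4 rises was not tested.

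Acsl3 (NM_001136222, chromosome 1, 78654400 to 78704318, plus strand), a synthetase of the endoplasmic reticulum and lipid droplets, passed in no contrast without a replicate block. It read 388, 409 and 376 CPM in DMSO without Dox, 506, 455 and 479 CPM in ISO and 322, 389 and 285 CPM in SR-3420. The ISO libraries lay above DMSO (0.30, SE 0.14, edgeR adjusted p 0.129), while SR-3420 overlapped it (-0.23, edgeR adjusted p 0.711). With Dox it read 263, 289 and 282 CPM in DMSO, 274, 374 and 331 CPM in ISO and 223, 326 and 294 CPM in SR-3420, and these groups overlapped. All DMSO libraries with Dox lay below those without, at -0.49 (SE 0.15, edgeR adjusted p 0.123). With the replicate number as a block this change passed (-0.49, edgeR adjusted p 0.00729), as did ISO without Dox (0.30, 0.0361). In the GENCODE annotation of mm9, Utp14b overlaps Acsl3 over 9551 bases on the same strand, so its value is uncertain.

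Acsl4 (NM_019477, chromosome X, 138752536 to 138825078, minus strand), which prefers arachidonic acid, had the largest rise of the set with ISO in both states. Without Dox it went from 56.9, 51.7 and 41.6 CPM to 565, 391 and 295 CPM, and with Dox from 41.9, 44.8 and 43.8 CPM to 332, 324 and 259 CPM. The lowest ISO libraries, at 295 and 259 CPM, lay far above the highest DMSO libraries, at 56.9 and 44.8 CPM. The log2 fold changes were 3.04 (SE 0.20, edgeR adjusted p 2.14e-12) and 2.82 (SE 0.20, edgeR adjusted p 5.44e-12), or 8.25-fold and 7.04-fold. The interaction was -0.23 (SE 0.29, edgeR adjusted p 0.781), so a difference between the states was not detected. SR-3420 gave 48.2, 47.6 and 33.7 CPM without Dox (-0.20, edgeR adjusted p 0.887). With Dox it gave 67.7, 61.6 and 49.9 CPM (0.47, SE 0.23, edgeR adjusted p 0.213), above all DMSO libraries of its state without passing. With the replicate number as a block that rise passed (0.51, edgeR adjusted p 0.0365).

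Acsl5 (NM_027976, chromosome 19, 55327859 to 55371118, plus strand), a synthetase found on mitochondria and the endoplasmic reticulum, passed in both Dox states with ISO, with opposite signs. Without Dox it rose from 63.2, 50.3 and 63.9 CPM in DMSO to 119, 97.2 and 97.6 CPM in ISO (0.80, SE 0.16, edgeR adjusted p 0.000275). With Dox it fell from 87.1, 94.7 and 79.8 CPM to 53.4, 56.7 and 63.5 CPM (-0.60, SE 0.15, edgeR adjusted p 0.00332). The groups did not overlap in either state, and the interaction was -1.40 (SE 0.22, edgeR adjusted p 0.000313). It remained between -1.45 and -1.30 over the alternatives.

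SR-3420 without Dox left Acsl5 at 67.9, 77.2 and 65.1 CPM, just above DMSO (0.23, SE 0.16, edgeR adjusted p 0.739). In rescued cells SR-3420 gave 51.9, 64.6 and 56.9 CPM, below every DMSO library (-0.60, SE 0.15, edgeR adjusted p 0.0111). Without SR-3420 with Dox replicate 1 this call was lost (-0.52, edgeR adjusted p 0.0794), whereas Acsl1 (1.76), Fabp4 (2.94) and Cd36 (0.66) passed without that library. The SR-3420 interaction of Acsl5 was -0.83 (SE 0.22, edgeR adjusted p 0.0660). With the replicate number as a block it passed (-0.83, edgeR adjusted p 0.0194), as did the change with Dox in DMSO (0.54, 0.0417). In DMSO all libraries with Dox lay above those without (0.55, SE 0.16, edgeR adjusted p 0.0973), so the falls with Dox started from a higher level than the rise without it. At 37 to 181 counts per library, Acsl5 was among the less deeply counted genes of the set.

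The GENCODE annotation of mm9 places the end of Zdhhc6, on the minus strand, over the last 7039 bases of the Acsl5 span, whereas the deposited coordinates leave 1671 bases between the genes. No source states that strand was used in counting, so a share of the Acsl5 counts could be Zdhhc6 reads. Zdhhc6 itself changed by 0.22 and 0.44 with ISO and -0.06 and 0.05 with SR-3420, without and with Dox, and passed in no contrast.

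Because ratios within a library do not depend on library scaling, Acsl5 was set against each of the other synthetases as a log2 ratio of counts, with 0.5 counts added. Changes by a stimulus were averaged over the Dox states, and the 12 tests (3 ratios, 2 stimuli, change and interaction) were exact two-sided permutation tests of 400 arrangements each, with a smallest possible p of 0.005, adjusted over the 12. The interaction permutes Dox labels within a stimulus, so its null is no effect of Dox. With the replicate number as a block, 64 arrangements remain and no adjusted p passed. The Acsl5 response was known from earlier results on these libraries, so these ratios are no independent evidence of it.

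Against Acsl1, the ratio read -1.31, -2.17 and -1.46 in DMSO, -1.60, -2.03 and -1.68 in ISO and -2.81, -2.79 and -2.67 in SR-3420 without Dox. With Dox it read -1.35, -1.73 and -1.44, then -4.86, -4.60 and -4.58, then -3.93, -3.91 and -3.65. The ratio was lowest in rescued cells with ISO. The ISO interaction of -3.04 had an exact permutation p of 0.04 (adjusted 0.0533). That of SR-3420, -1.21, had the same values, so neither passed. With each stimulus the ratios with Dox did not overlap those without, so both p-values were set by the DMSO libraries that the tests share. These p-values therefore cannot grade the size of either interaction. The SR-3420 change of -1.72 passed (exact permutation p 0.005, adjusted 0.015). The ISO change was -1.65 (exact permutation p 0.03, adjusted 0.0533).

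The next ratio was to Acsl3, some of whose own changes passed only with a replicate block. It averaged -2.72 ± 0.249 (SD, n = 3) in DMSO and -2.20 ± 0.105 in ISO without Dox. With Dox it averaged -1.67 ± 0.124 and -2.48 ± 0.203. The ISO interaction was -1.33 (exact permutation p 0.005, adjusted 0.015) and the SR-3420 interaction -1.08 (exact permutation p 0.04, adjusted 0.0533). Averaged over the Dox states, the ISO and SR-3420 changes were -0.14 and -0.05 (exact permutation p 0.56 and 0.79, adjusted 0.611 and 0.79).

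Against Acsl4, ISO lowered the ratio in both states, from 0.24 ± 0.336 to -1.95 ± 0.329 without Dox and from 0.99 ± 0.120 to -2.38 ± 0.322 with Dox (SD, n = 3). The ISO change was -2.78 (exact permutation p 0.005, adjusted 0.015) and the SR-3420 change -0.28 (exact permutation p 0.335, adjusted 0.402). The interactions were -1.19 for ISO (exact permutation p 0.01, adjusted 0.024) and -1.50 for SR-3420 (exact permutation p 0.005, adjusted 0.015). The ISO interaction lost its call without 1 of 6 libraries, namely DMSO with Dox replicate 1, 2 or 3, ISO with Dox replicate 1 or 2, or ISO without Dox replicate 3 (-1.26 to -1.01, adjusted p 0.0533 to 0.06).

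**Figure D3:**
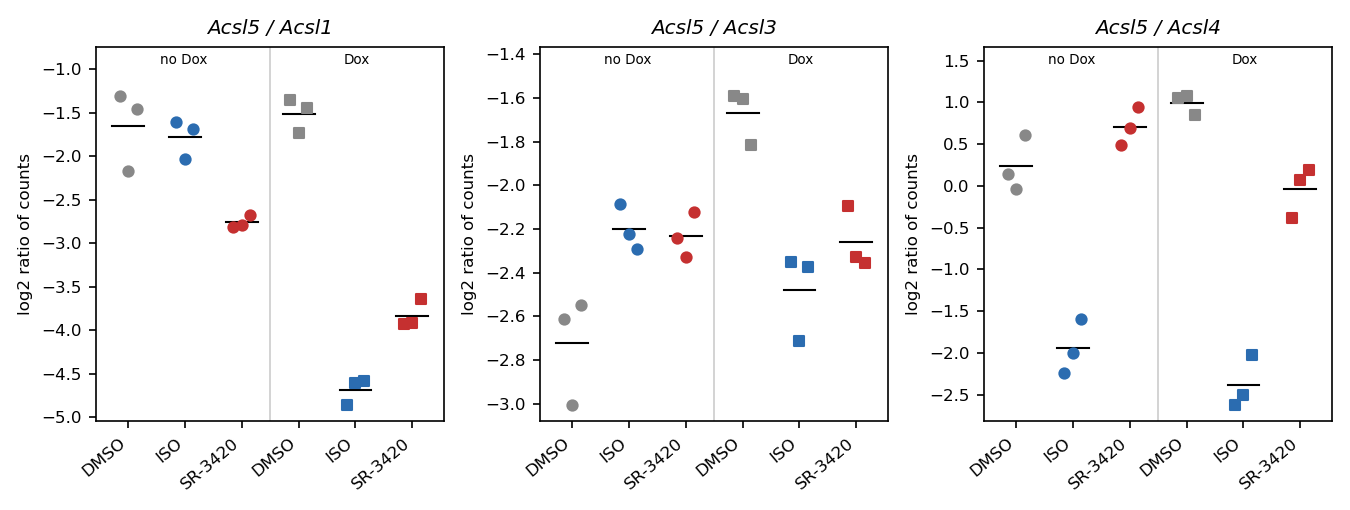
Log2 ratio of Acsl5 counts to those of Acsl1, Acsl3 and Acsl4 (y axes, not from 0) in each library, in DMSO (grey), ISO (blue) and SR-3420 (red), without Dox (circles) and with Dox (squares); bars are means of 3 libraries. In ISO with Dox the Acsl5 to Acsl1 ratio lay between -4.86 and -4.58, below every other group.

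Taken per kilobase counted, the 4 synthetases also changed in make-up. Acsl3 gave 64.5% ± 1.07 (SD, n = 3) of their summed signal in DMSO without Dox and Acsl1 20.9% ± 3.00. In ISO with Dox, Acsl1 gave 64.2% ± 3.54 and Acsl3 20.7% ± 3.31. Acsl5 contributed 9.78%, 9.73% and 9.35% in DMSO, ISO and SR-3420 without Dox, and 15.5%, 3.66% and 6.17% with Dox. Its share was thus level over the treatments of the knockdown cells and lowest in rescued cells with ISO. Acsl4 went from 4.84% to 22.4% with ISO without Dox and from 4.56% to 11.3% with Dox. These shares are of counts within a set and were not tested.

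**Figure D4:**
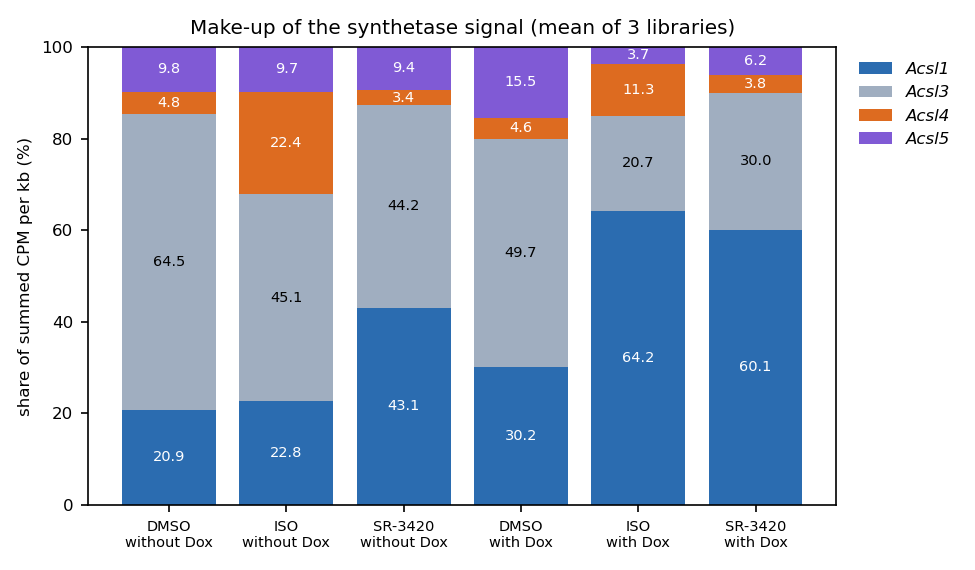
Mean share (%, y axis) of Acsl1, Acsl3, Acsl4 and Acsl5 in their summed CPM per kilobase counted, in the 6 groups (x axis; 3 libraries each). Acsl1 went from 20.9% in DMSO without Dox to 64.2% in ISO with Dox, and Acsl5 was lowest, at 3.66%, in that same group.

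The 5 genes whose log2 CPM was most like that of Acsl5 over the 18 libraries, out of 10178, were Fgf2 (Pearson r 0.82), Furin (0.81), Brpf1 (0.80), Yap1 (0.77) and Grb2 (0.77). The libraries share groups and scaling, so r describes the likeness only. Their ISO changes ran from 0.38 to 1.78 without Dox and from -0.66 to 0.01 with Dox, with Fgf2 at 1.78 and -0.26.

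The 250 bases upstream of the start are shown for the synthetases whose responses differed most, Acsl1, Acsl4 and Acsl5, for comparison of their sequences. They come from the RefSeq promoter table, matched at a unique place on mm9. Of the 10 genes, 7 had entries (Acsl1, Acsl3, Acsl4, Acsl5, Cd36, Slc27a1 and Slc27a4), with 10 windows of 300 bases in all. Capitals mark a match to a searched motif.
Acsl1, chr8:47556141-47556390, plus strand: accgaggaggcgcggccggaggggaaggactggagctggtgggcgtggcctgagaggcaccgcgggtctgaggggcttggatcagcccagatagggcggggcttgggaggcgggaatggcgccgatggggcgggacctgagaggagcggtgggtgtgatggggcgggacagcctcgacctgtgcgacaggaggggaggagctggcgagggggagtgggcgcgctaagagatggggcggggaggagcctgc
Acsl4, chrX:138825079-138825328, minus strand: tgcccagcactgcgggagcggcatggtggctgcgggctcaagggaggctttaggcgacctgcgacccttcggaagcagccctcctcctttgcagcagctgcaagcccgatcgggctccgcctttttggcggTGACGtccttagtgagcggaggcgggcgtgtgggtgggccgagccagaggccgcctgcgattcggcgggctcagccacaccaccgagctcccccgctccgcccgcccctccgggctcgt
Acsl5, chr19:55327609-55327858, plus strand: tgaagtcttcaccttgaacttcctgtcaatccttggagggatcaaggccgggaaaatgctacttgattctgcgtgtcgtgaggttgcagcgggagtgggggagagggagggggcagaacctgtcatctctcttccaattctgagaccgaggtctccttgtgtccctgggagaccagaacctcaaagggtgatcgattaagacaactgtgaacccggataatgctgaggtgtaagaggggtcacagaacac

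Windows were searched on both strands for the PPAR direct repeat (AGGNCA repeated after 1 base), the cAMP response element TGACGTCA, its shorter core TGACG, which TGACGTCA contains, and the C/EBP motif TTGCNNAA. Of all 32851 promoter windows, 0.381%, 1.79%, 20.8% and 10.8% held them in that order. Of the 10 windows, only that of Acsl4 held a match, the core TGACG at 119 to 115 bases before its start. A further Acsl1 start in the table, 19924 bases downstream of the deposited start, is not shown, and its window held no match. A missing match says only that these letters are not in the window.

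Other genes of uptake and of acyl-CoA metabolism were counted for comparison. Of 19 listed uptake, lipoprotein receptor and lipase genes, 16 were tested, and ISO raised 6 and lowered 3 without Dox and raised 4 and lowered 4 with Dox (medians 0.00 and -0.15), against the 14.5% higher and 13.5% lower, and 16.4% and 16.1%, of all tested genes given above. SR-3420 raised 1 and lowered 0 without Dox, against 0.698% and 0.0688% of all genes, and raised 0 and lowered 3 with Dox, against 6.53% and 3.37%. Without SR-3420 with Dox replicate 1 it raised 0 and lowered 1. At an unadjusted p under 0.05 in edgeR, 4 were higher and 0 lower without Dox, against 5.55% and 3.22% of all genes, and 3 higher and 5 lower with Dox, against 12.9% and 9.97%. Fabp5, a second binding protein, rose by 1.23 and 1.83 with ISO (edgeR adjusted p 0.000250 and 2.42e-07). Scarb1, a lipoprotein receptor, rose by 0.80 and 0.93 with ISO and by 0.60 with SR-3420 without Dox (edgeR adjusted p 6.39e-05, 4.18e-06 and 0.0280). Got2, whose product was also described as a membrane fatty acid binding protein, rose by 1.16 and 0.71, and Lmf1, which helps LPL mature, fell by 0.92 and 0.87 on the log2 scale.

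Of 25 other synthetase, acyl-CoA binding protein and thioesterase genes, 14 were tested, and their adjusted counts stand against the same shares of all genes. ISO raised 3 and lowered 1 without Dox and raised 1 and lowered 2 with Dox, with medians of 0.03 and -0.10. SR-3420 raised 1 with Dox, with or without SR-3420 with Dox replicate 1, and none without Dox, where 3 were higher and 0 lower at an unadjusted p under 0.05 in edgeR, against 5.55% and 3.22% of all genes. Dbi, the acyl-CoA binding protein, rose by 0.45 and 0.88 with ISO and by 0.73 with SR-3420 with Dox (edgeR adjusted p 0.0159, 1.58e-05 and 0.000607), the last at 0.77 without SR-3420 with Dox replicate 1 (edgeR adjusted p 0.00155). Aacs, an acetoacetyl-CoA synthetase, rose by 0.98 and Acot9, a mitochondrial thioesterase, by 0.73 with ISO without Dox, while Acbd4, another acyl-CoA binding protein, fell by 0.91 and 0.80. With Dox alone none of either list passed in edgeR, and at an unadjusted p under 0.05 there were 3 higher and 0 lower in the first list and 0 higher and 1 lower in the second, against 5.86% and 3.97% of all genes.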

How the data were processed

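RNA-seq libraries of the 6 groups (3 each) were analysed from the deposited table of whole-number counts per gene, whose sample columns were each assigned by title. Per the labels and methods, the authors mapped reads to mm9 with STAR 2.4.2a, kept 1 read per position and length with HOMER and counted genes with iRNA-seq. The deposited counts were not normalised. The table's counted length was used for CPM per kilobase and was shorter than the non-exon span for 9 of the 10 genes, so the counts may be largely of unspliced RNA, although the methods name counting over genes.

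Genes were kept by filterByExpr on the 6 groups (10178 tested, 7494 not), scaled by TMM and fitted in 1 model by quasi-likelihood in edgeR 4.0.16 (R 4.3.3), with 1 mean per group. The common dispersion was 0.0176. Tests were two-sided with Benjamini-Hochberg adjustment across the tested genes, and passed at 0.05 with no fold limit. The study's design used DESeq2 with a fold limit, and both were tried as alternatives (DESeq2 1.42.0), with RLE factors, library totals, no filter, 10 counts in every sample, a replicate block, the groups of a contrast only, a prior of 2 counts in ratios, and each library left out. Scripts were tested on simulated data. The limit of 3 counts covers counting error only. Ratio and motif steps used Python 3.11.15. Marker gene Lipe was not analysed here, and 1 result of the further lists is not reported here.

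Genes named were the 10 of the set, Abhd5, the overlapping genes Zdhhc6 and Utp14b, markers of the listed cell types, the 5 most like Acsl5, and of each further list the 4 with the smallest p. Members, lists and tests were chosen with earlier results of these data known.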

Additional observations from a re-analysis of the deposited data

Results flagged for a closer look

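The responses to ISO with and without Dox differed, by the interaction test of edgeR, for 3 genes of the set, for Abhd5 and for the adipocyte markers Cidec and Adipoq. The difference (with minus without Dox, log2 scale) was 1.63 for Acsl1, 1.92 for Fabp4 and -1.40 for Acsl5, and -0.98 for Abhd5, 1.45 for Cidec and 0.85 for Adipoq. Abhd5 rose with ISO by 1.50 without Dox and by 0.52 with Dox, where its level in DMSO was higher (edgeR adjusted p of the difference 0.0194). In the exact permutation tests of ratios, the interaction passed for Acsl5 to Acsl3 with ISO (-1.33), Acsl5 to Acsl4 with ISO (-1.19) and Acsl5 to Acsl4 with SR-3420 (-1.50), with adjusted p of 0.015, 0.024 and 0.015.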

How the results depend on the processing

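Of 63 gene and contrast values, 22 passed, and 18 of these passed under every alternative that tested them, the fold limit aside. None of the 22 changed sign. Of 918 alternative values, 871 kept sign and side of the threshold, 9 lost the call, 11 gained one and 27 changed sign. With a log2 fold limit of 1, ISO raised 1 gene without Dox and 3 with Dox, and lowered 1 with Dox, and SR-3420 with Dox lowered 0. Without a filter, Dox in DMSO raised 1 and the SR-3420 interaction was negative for 1. With 10 counts in every sample the ISO interaction was positive for 1, since Fabp4 was not tested. DESeq2 also called the Cd36 ISO interaction (0.64). With library totals in place of TMM the median log2 fold change of all genes was -0.19 and -0.16 (ISO without and with Dox), -0.21 (SR-3420 with Dox) and -0.14 (SR-3420 interaction), against -0.02 to -0.01 with TMM. Under totals, values not past the threshold turned negative for Slc27a4 (-0.017 for SR-3420 without and -0.0239 with Dox, -0.0755 for Dox in DMSO, -0.0069 for the SR-3420 interaction) and Acsl3 (-0.14, SR-3420 with Dox). Leaving out 1 library, SR-3420 with Dox lowered 0 to 1 genes and the ISO interaction was positive for 1 to 2. It changed the sign of further values that had not passed: Slc27a4 with SR-3420 without Dox (-0.0764 to 0.18), ISO with Dox (-0.14 to 0.0892), Dox in DMSO (-0.10 to 0.16) and the SR-3420 interaction (-0.0215 to 0.25); Lpl with Dox in DMSO (-0.0200 to 0.20) and SR-3420 with Dox (-0.22 to 0.0074); Fabp4 with Dox in DMSO (-0.18 to 0.53); Acsl3 with SR-3420 with Dox (-0.10 to 0.16); and the ISO interactions of Acsl3 (-0.15 to 0.0495), Slc27a1 (-0.13 to 0.28) and Acsl4 (-0.42 to 0.0504). The ratio ranges were -1.78 to -1.57 and -3.21 to -2.78 (Acsl5 to Acsl1, ISO change and interaction), -1.38 to -1.01 (Acsl5 to Acsl4, ISO interaction), and -1.38 to -0.95 and -1.17 to -0.94 (SR-3420 interactions against Acsl1 and Acsl3). For the first 2 of these, the adjusted p passed without DMSO without Dox replicate 2 (-1.78, 0.024) and replicate 1 (-3.21, 0.0343) respectively, and for the last 2 without DMSO without Dox replicate 1 (-1.38, 0.0343) and SR-3420 with Dox replicate 1 (-1.16, 0.03).

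Replicate numbers are shared between groups, but nothing in the labels says that a number marks a shared day. Deviations correlated over 0.1 in 36 of 45 same-number pairs (lowest 0.0386, median 0.149), against a median of -0.0922 for pairs of different number. Each of the 18 libraries correlated best with its own number. The libraries thus shared variation by number, and its source is not given. With the replicate number as a block, Dox in DMSO raised 2 (Slc27a1, Acsl5) and lowered 1 (Acsl3), the SR-3420 interaction was negative for 2 (Slc27a1, Acsl5), Acsl3 with ISO without Dox (0.30), Acsl4 with SR-3420 with Dox (0.51) and the Cd36 ISO interaction (0.62) also passed, and calls over all genes went from 78 to 238 (SR-3420 without Dox), 1008 to 1568 (with Dox), 120 to 271 (Dox in DMSO), 222 to 600 (ISO interaction) and 77 to 339 (SR-3420 interaction). Without a filter the same counts were 157, 191, 358 and 156 for all but SR-3420 with Dox, with 10 counts in every sample Dox in DMSO gave 62, and with library totals SR-3420 without Dox gave 36 and the interactions 130 and 42. Leaving out 1 library they were 28 to 53 (SR-3420 without Dox, lowest without DMSO without Dox replicate 1), 639 to 847 (with Dox, lowest without SR-3420 with Dox replicate 1), 77 to 143 (Dox in DMSO, lowest without DMSO without Dox replicate 1), 111 to 301 (ISO interaction, lowest without that library or ISO with Dox replicate 1) and 28 to 68 (SR-3420 interaction, lowest without SR-3420 without Dox replicate 3). The block leaves 64 arrangements for a ratio, so that the smallest p is 0.0312 and no adjusted p passed: the values of -2.78, -1.33, -1.19, -1.72 and -1.50 had an adjusted p of 0.075. The causes were not tested. With 18 to 67 counts per library, modest changes of Slc27a4 may have been missed.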
